A study of Mus musculus with 8 samples.

Results

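The 36 genes described here encode the machinery of glycolysis and of the response to low oxygen, and they were taken by name from the 55291 gene symbols of the deposited count table. They comprise 17 glycolytic enzymes, 4 transporters of glucose and lactate, 2 regulators of glycolytic flux, 3 subunits of hypoxia-inducible factors (HIF), 2 prolyl hydroxylases that sense oxygen and 8 genes known as hypoxia targets. All 36 were found in the table, and all 36 passed the filter on low counts. The enzymes and the hypoxia targets are given apart below. The genes were chosen for what they do and with earlier results of these data known, without a threshold on the values measured here.

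Glycolysis splits glucose into pyruvate, and lactate dehydrogenase turns pyruvate into lactate where respiration is limited. When oxygen is ample, prolyl hydroxylases mark HIF alpha subunits for destruction. When oxygen falls, the alpha subunits persist, pair with ARNT and raise the transcription of glycolytic enzymes, glucose transporters and of the hydroxylases themselves, which closes a feedback loop. The midgestation heart relies strongly on glycolysis, and its compact wall is a known site of HIF activity before coronary vessels form.

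The study asked what changes in the ventricle before a shape defect is visible when cardiomyocytes lose Pkn2, a serine/threonine kinase. Ventricular tissue was taken at E10.5 for 4 cKO libraries, from embryos with Pkn2 fl/fl and the XMLC2-Cre transgene, and for 4 control libraries, from Pkn2 fl/fl littermates without Cre. Both groups therefore shared the floxed alleles and the C57BL/6N background, and Cre itself was present in the cKO group alone. XMLC2-Cre is active in cardiomyocytes, whereas the libraries were made from whole ventricular tissue, so cells that the driver does not reach were sampled too. The sex of the embryos is not given in the sources used here. Poly(A) RNA was sequenced, and total counts ran from 47559845 to 56660938 per library. Levels are given as normalised counts (CPM, scaled to a common library size by TMM, which corrects for library composition). Comparisons between genes use the TPM (transcript abundance corrected for gene length and library size) deposited by the authors.

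Pkn2 (ENSMUSG00000004591, chr3:142790902-142882004 of GRCm38, minus strand) checked the labels. Its level was 83.1, 77.6, 79.6 and 84.3 CPM in cKO replicates 1 to 4 and 133, 139, 152 and 153 CPM in control replicates 1 to 4. All 4 cKO values stayed under all 4 control values, for a log2 fold change of −0.83 (standard error 0.060, edgeR adjusted p = 7.67e-06). The cardiomyocyte marker list (10 genes, among them Tnnt2, Actc1 and Myh6) summed to 37048 to 40508 CPM in cKO and 37078 to 41218 CPM in control libraries, and each of its genes had counts.

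In the RefSeq promoters of mouse assembly GRCm38.p6 (250 bases before to 50 bases after each start), the HIF core letters ACGTG or GCGTG were searched on both strands. A promoter was in that table for 33 of the 36 genes, all but Slc2a3, Epas1 and Ndrg1. A core was present in 31 of the 33, the exceptions being Tpi1 and Gpi1. Of the 14858 genes tested here with a promoter in that table, 8993 had a core. Some genes have several starts, and their windows can overlap and share a core, as in Eno1 and Aldoa. By window the core was in 39 of 46 (84.8%). It was in 43.8% of the 32851 promoters in the table and in 55.4% of the 18796 promoters of genes tested here. Base composition was not matched in these comparisons, and a core is a run of letters, not a bound site. The 250 bases before the start are printed 5′ to 3′ on the gene's strand, with cores of either strand in capitals, for the enzyme whose promoter held the most of them (Ldha, chr7:46845554-46845803, plus strand), for 3 hypoxia-response genes whose levels were higher on average in cKO (Bnip3, chr7:138909507-138909756, minus strand, Car9, chr4:43506776-43507025, plus strand, and Egln3, chr12:54203875-54204124, minus strand) and for the transporter that was lower in every cKO library (Slc16a1, chr3:104638414-104638663, plus strand). CACGTG reads ACGTG on both strands.
Ldha: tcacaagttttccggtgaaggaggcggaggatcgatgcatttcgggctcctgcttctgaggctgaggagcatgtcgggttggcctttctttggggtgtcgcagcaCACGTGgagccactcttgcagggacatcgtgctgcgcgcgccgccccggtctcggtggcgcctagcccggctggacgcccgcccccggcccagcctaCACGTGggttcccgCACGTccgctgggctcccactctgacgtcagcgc
Bnip3: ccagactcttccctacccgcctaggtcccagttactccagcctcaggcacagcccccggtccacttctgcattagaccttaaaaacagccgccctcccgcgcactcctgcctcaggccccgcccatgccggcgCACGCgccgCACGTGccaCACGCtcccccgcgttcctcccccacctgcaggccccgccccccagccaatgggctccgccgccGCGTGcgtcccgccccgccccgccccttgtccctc
Car9: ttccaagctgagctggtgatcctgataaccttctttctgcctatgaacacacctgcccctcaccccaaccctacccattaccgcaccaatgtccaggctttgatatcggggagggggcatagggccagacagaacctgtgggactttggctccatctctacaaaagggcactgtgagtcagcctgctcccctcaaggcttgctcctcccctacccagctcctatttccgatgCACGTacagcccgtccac
Egln3: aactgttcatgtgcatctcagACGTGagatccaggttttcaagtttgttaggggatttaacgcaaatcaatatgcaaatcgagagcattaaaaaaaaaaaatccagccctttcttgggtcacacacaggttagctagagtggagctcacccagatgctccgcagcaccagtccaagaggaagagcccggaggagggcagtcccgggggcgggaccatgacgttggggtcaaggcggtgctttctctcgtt
Slc16a1: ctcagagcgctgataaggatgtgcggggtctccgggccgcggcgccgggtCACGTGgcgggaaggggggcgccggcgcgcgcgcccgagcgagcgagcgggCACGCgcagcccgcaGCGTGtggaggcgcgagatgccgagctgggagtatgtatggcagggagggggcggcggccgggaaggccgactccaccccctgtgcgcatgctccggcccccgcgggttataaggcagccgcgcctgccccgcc
The promoters of Ldha and Bnip3 held 5 cores each in these 250 bases, that of Slc16a1 held 4, and those of Car9 and Egln3 held 1 each. Since 31 of the 33 genes had a core, its presence could not separate genes higher in cKO from genes lower in cKO.

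None of the 36 genes differed between cKO and control ventricles at an adjusted p of at most 0.05 (edgeR's quasi-likelihood F test over 26820 genes, Benjamini-Hochberg adjustment). Across all genes tested 230 did so, 138 of them higher and 92 lower in cKO, which is 0.858%, so that a count of 0 among 36 lies near the background. At an unadjusted p under 0.05 there were 12 of the 36 genes, 9 higher and 3 lower, against 3436 of 26820. With DESeq2 in place of edgeR, 867 of all genes tested passed, Slc16a1 and Car9 among them. With limma-voom or limma on log2 TPM none of the 36 did, but the fits on TPM passed few genes of any kind (counts are given below). Values of the 4 cKO and 4 control libraries did not overlap for 2 of the 36 genes, Slc16a1 (cKO below) and Car9 (cKO above), against 6.91% of all genes tested.

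The direction was uneven. The level was higher on average in cKO for 28 of the 36 genes and lower for 8, while 49.8% of all genes tested were higher. The median log2 fold change was 0.13 over the 36 genes, 0.11 over the 17 enzymes and 0.30 over the 8 hypoxia targets, against −0.00085 over all genes tested. Of the 36 genes 24 had their highest value of all libraries in a single one, cKO replicate 4. Without it, 23 of the 36 genes were higher in cKO, and the medians were 0.013 for the enzymes and 0.12 for the hypoxia targets. In bulk tissue such as this, a change in the number of cells of one type and a change in RNA per cell cannot be told apart.

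**Figure D1:**
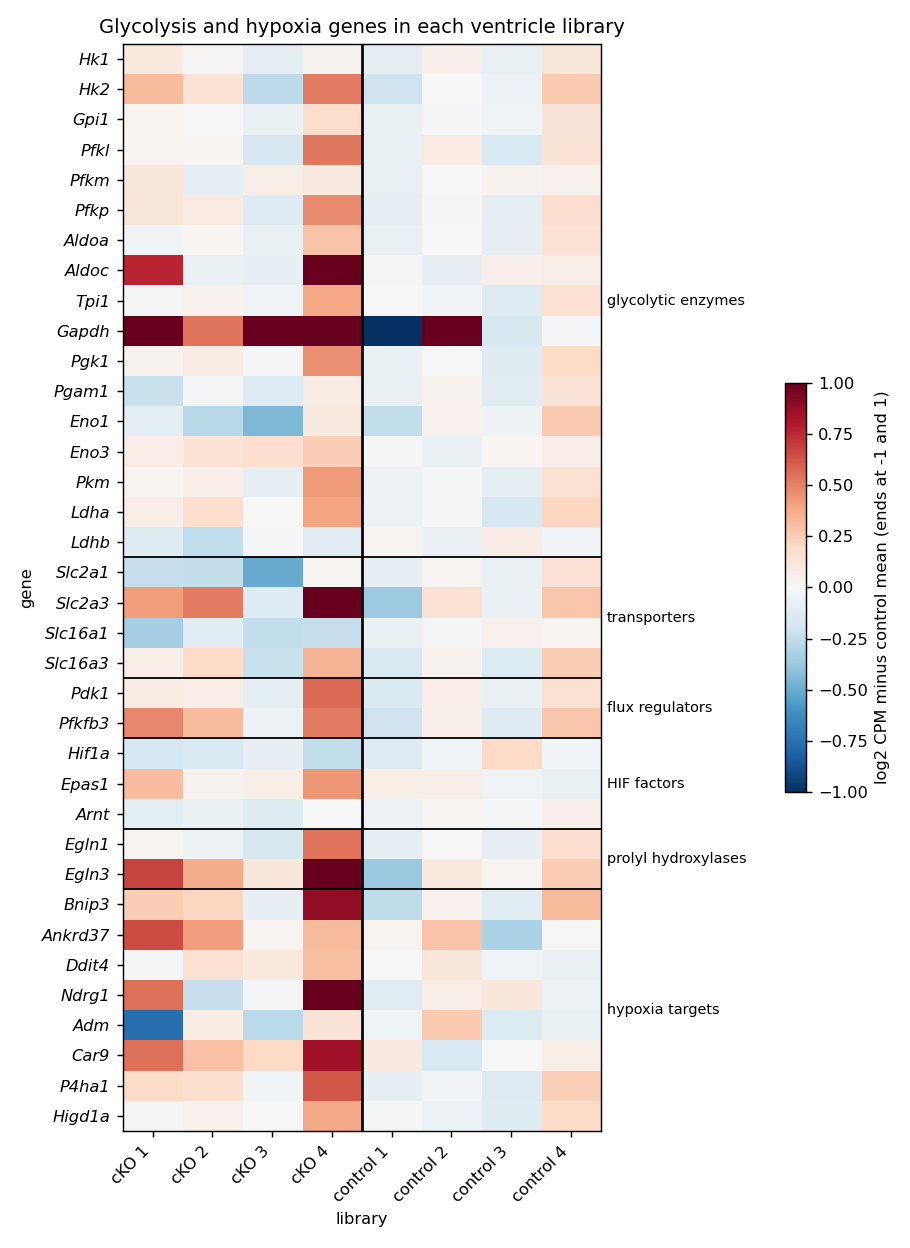
Level of each of the 36 genes (rows, grouped by role) in each of the 8 libraries (columns), as log2 CPM minus the mean of the 4 controls, with red above and blue below that mean. The column of cKO 4 is the reddest, being the highest of all libraries for 24 genes, and the row of Gapdh varies most among the controls.

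The enzymes of the glycolytic backbone were among the most abundant transcripts of this group of genes and differed little. By the authors' TPM, averaged over the 8 libraries, Ldha stood highest at 2971, followed by Aldoa at 2796, Pkm at 1985, Eno1 at 1889, Tpi1 at 1631 and Pgk1 at 1529. The lowest enzyme was Aldoc, the aldolase known from brain, at 6.93 TPM. The summed TPM of the 17 enzymes was 16726 ± 2122 in cKO and 15630 ± 1387 in control libraries (mean ± SD, n = 4 each), and the ranges overlapped.

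Ldha, which makes lactate from pyruvate, measured 2612, 2797, 2491 and 3283 CPM in cKO replicates 1 to 4 and 2411, 2473, 2232 and 2896 CPM in control replicates 1 to 4. The groups overlapped, and the highest value of each group was in its replicate 4. The log2 fold change was 0.16 (standard error 0.089, edgeR adjusted p = 0.502), with an approximate 95% interval of −0.016 to 0.33. It was 0.082 without cKO replicate 4. Ldhb, which encodes the heart-type subunit, went the other way on average, at 260.3 ± 17.2 CPM in cKO and 282 ± 12.3 CPM in control libraries (SD, n = 4 each). Its log2 fold change was −0.12 (standard error 0.060, edgeR adjusted p = 0.439).

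Through the upper steps, the hexokinases that trap glucose differed by 0.011 (Hk1) and 0.19 (Hk2) on the log2 scale, and Gpi1, the glucose phosphate isomerase, by 0.033. The phosphofructokinases, which commit sugar to glycolysis, differed by 0.12 (Pfkl), 0.043 (Pfkm) and 0.15 (Pfkp), and the main aldolase Aldoa by 0.053. Their edgeR adjusted p-values were between 0.592 and 0.971. Leaving out cKO replicate 4 turned the sign for Gpi1 (to −0.010), Pfkl (to −0.034) and Aldoa (to −0.024), and left 0.082 for Hk2 and 0.030 for Pfkp. The sign of Hk1 turned when cKO replicate 1, control replicate 1 or control replicate 3 was left out, with values down to −0.015.

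Aldoc had the largest mean difference of the enzymes after Gapdh, and it came from 2 cKO libraries. Its values were 13.3, 7.50, 7.42 and 21.7 CPM in cKO and 7.72, 7.40, 8.13 and 8.15 CPM in control libraries. cKO replicates 1 and 4 lay above all controls, while cKO replicates 2 and 3 lay within their range. The log2 fold change was 0.67 (standard error 0.25, edgeR adjusted p = 0.253), and it was 0.27 without cKO replicate 4. Among the alternatives tried it passed only when the filter on low counts was removed, at an adjusted p of 0.0273.

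Through the lower steps, the log2 differences were 0.10 for Tpi1 (triose phosphate isomerase), 0.15 for Pgk1 (phosphoglycerate kinase), −0.073 for Pgam1 (phosphoglycerate mutase) and 0.11 for Pkm (pyruvate kinase). Tpi1 measured 1339, 1384, 1317 and 1765 CPM in cKO and 1354, 1327, 1237 and 1505 CPM in control libraries. Pgk1 measured 1410.2, 1449.8, 1366 and 1895 CPM in cKO and 1314, 1372, 1266 and 1581 CPM in control libraries. In both genes cKO replicates 1 to 3 lay close together inside the control range and cKO replicate 4 lay above all other libraries. Without it the log2 differences were −0.0018 for Tpi1, 0.035 for Pgk1, −0.12 for Pgam1 and 0.0046 for Pkm. The edgeR adjusted p-values of these 4 genes were between 0.594 and 0.767 with all libraries.

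The enolases, which make phosphoenolpyruvate, had mean differences of opposite sign. Eno3, the muscle enolase, measured 229, 241, 247 and 260.3 CPM in cKO and 217, 209.9, 222 and 229.8 CPM in control libraries, and the groups touched only between cKO replicate 1 and control replicate 4. Its log2 fold change was 0.15 (standard error 0.056, edgeR adjusted p = 0.24) with an approximate 95% interval of 0.043 to 0.26. A two-sided exact permutation test gave p = 0.0571, where the smallest that 4 against 4 allow is 0.0286. Without cKO replicate 4 the difference was 0.13, so that it did not rest on that library.

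Eno1, the ubiquitous enolase, measured 1972, 1738, 1543 and 2249 CPM in cKO and 1774, 2166, 2036 and 2524 CPM in control libraries, for a log2 fold change of −0.18 (standard error 0.11, edgeR adjusted p = 0.552). Eno1b is a near-identical gene, and how reads shared by both were counted is not given in the sources used here, so both counts are uncertain. Eno1b was at 171, 153 and 182 CPM in cKO replicate 2, cKO replicate 3 and control replicate 1, and between 10.8 and 15.3 CPM in the other 5 libraries, which is a 16.8-fold range with high values in both groups. In the deposited TPM, Eno1b ran from 411 to 472 in those 3 libraries and from 185 to 237 in the other 5, a 2.56-fold range, so the 2 deposited tables differ for this gene too. With the Eno1b counts added, a sum chosen after seeing the data, the log2 difference of Eno1 was −0.15 (edgeR adjusted p = 0.544), and for Eno1 alone it was −0.27 without cKO replicate 4.

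Gapdh, the glyceraldehyde phosphate dehydrogenase often used as a reference gene, had the largest difference of the 36 genes and the least certain. Its values were 258, 166, 280.0 and 306 CPM in cKO and 45.7, 327, 102 and 113 CPM in control libraries. The controls alone spanned 7.15-fold, and the highest of all libraries was control replicate 2. The log2 fold change was 0.78 (standard error 0.38, edgeR adjusted p = 0.415). Without control replicate 2 it was 1.55, at an adjusted p of 0.022. The ratio of the deposited TPM to CPM varied 3.13-fold across the libraries for Gapdh, against 1.06-fold to 1.32-fold for each of the other 35 genes, so the 2 deposited tables do not give the same profile for this gene. In TPM the control range was 2.28-fold. Symbols that begin with Gapdh-ps each held at most 0.555% as many counts as Gapdh, and copies under other names were not searched. How reads shared with copies were counted is not given in the sources used here. The median of the enzymes was 0.11 also without Gapdh.

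Among the transporters, Slc16a1 and Slc2a1 were lower on average in cKO and Slc2a3 and Slc16a3 were higher. Slc16a1, which encodes the proton-linked lactate and pyruvate carrier MCT1 (ENSMUSG00000032902, chr3:104638668-104658462 of GRCm38), had the lowest p of the 36 genes. It measured 142, 165, 151 and 152 CPM in cKO and 171, 177, 184 and 182 CPM in control libraries. All 4 cKO values stayed under all 4 control values, and cKO replicate 4 lay between other cKO libraries for this gene. On the log2 scale the difference was −0.23 (standard error 0.058, edgeR adjusted p = 0.082) with an approximate 95% interval of −0.34 to −0.11. It was −0.22 without cKO replicate 4. The call was made by DESeq2 (adjusted p = 0.01) and, in edgeR, without the filter on low counts or without cKO replicate 2 (log2 fold change −0.26, adjusted p = 0.0481). DESeq2 and the fit without the filter passed more genes in all than the main fit.

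Slc2a1, which encodes the glucose transporter GLUT1, measured 694, 690.0, 575 and 825 CPM in cKO and 762, 829.7, 775 and 901 CPM in control libraries. cKO replicates 1 to 3 lay below all controls and cKO replicate 4 lay among them. This came to a log2 fold change of −0.23 (standard error 0.089, edgeR adjusted p = 0.27), and it was −0.32 without cKO replicate 4. Slc2a1 and Slc2a3 are both known HIF targets. Their mean differences had opposite signs here, neither passed the test, and the part of HIF was not tested.

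Slc2a3, which encodes the high-affinity glucose transporter GLUT3, measured 89.8, 95.95, 61.6 and 163 CPM in cKO and 52.2, 74.6, 64.4 and 81.7 CPM in control libraries. cKO replicates 1, 2 and 4 lay above all controls and cKO replicate 3 lay among them. edgeR gave a log2 fold change of 0.59 (standard error 0.21, edgeR adjusted p = 0.213). Without cKO replicate 4 it was 0.28, and without cKO replicate 3 it was 0.78, at an adjusted p of 0.029. With the replicate number as a block it was 0.52, at an edgeR adjusted p of 0.0349, although same-numbered libraries were not pairs. Slc16a3, which encodes the lactate exporter MCT4, had a log2 fold change of 0.10 (standard error 0.11, edgeR adjusted p = 0.798), and 0.017 without cKO replicate 4.

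**Figure D2:**
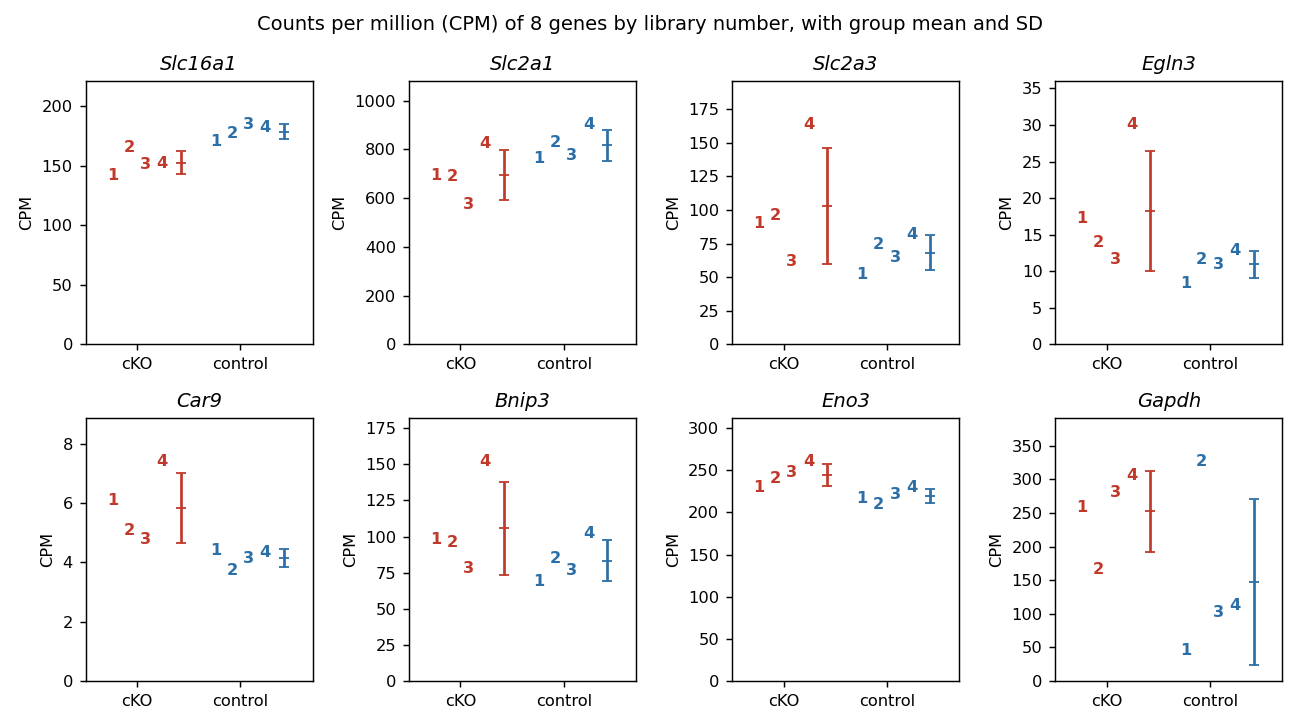
Level (CPM, axes from 0) of 8 of the genes in each library, drawn as its replicate number in red (cKO) and blue (control), with the group mean and SD to the right. Slc16a1 is separate and lower in cKO, Car9 is separate and higher, and cKO 4 stands highest for Slc2a3, Egln3 and Bnip3.

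The makeup of the enzyme and transporter families was compared as shares of their summed TPM, without a test. Slc2a3 made up 9.01%, 9.51%, 7.51% and 13.1% of the glucose transporter pair in cKO replicates 1 to 4 and 4.98%, 6.34%, 5.98% and 6.43% in control replicates 1 to 4. This was the one pair of groups without overlap, and it did not need cKO replicate 4, since the lowest cKO share was above the highest control share. Shares of CPM gave the same order. Ldhb made up 10.5% ± 1.45 of the lactate dehydrogenases in cKO and 12.4% ± 1.52 in controls (SD, n = 4 each), and Eno3 14.5% ± 2.003 and 11.8% ± 1.38 of the 2 enolases, with overlap in both. Hk2 and Slc16a1 also overlapped, as did all 3 phosphofructokinases. Aldoa made up over 99% of the aldolase pair in all libraries.

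**Figure D3:**
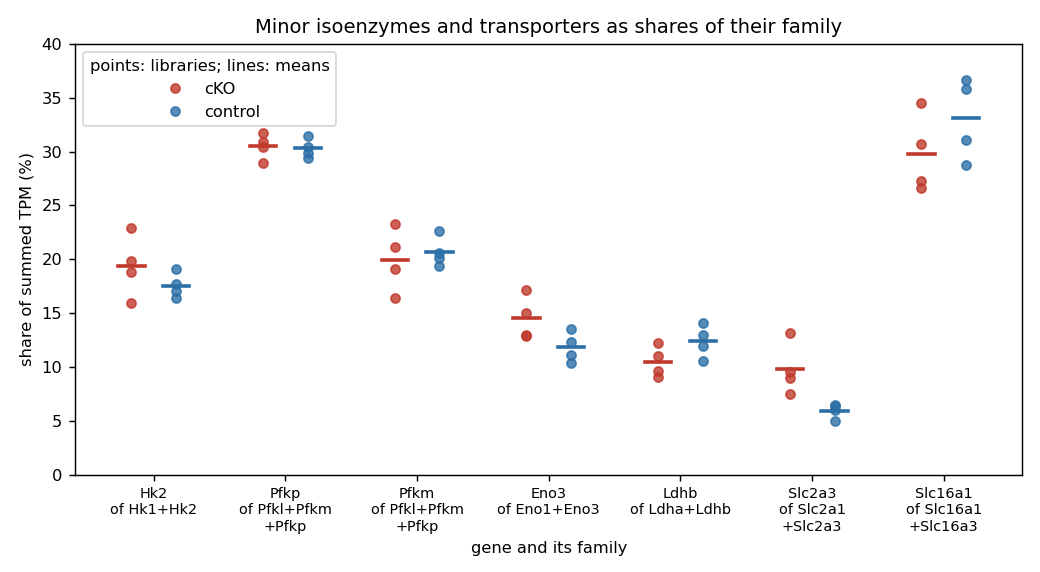
Share of summed TPM (percent, axis from 0 to 40) held by 7 genes within their families in each library (points, red cKO and blue control) and the group means (lines). The groups are separate for Slc2a3, with cKO from 7.51% to 13.1% and controls from 4.98% to 6.43%, and overlap for the other 6 genes.

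The flux regulators were higher on average in cKO. Pfkfb3, whose product makes the activator of phosphofructokinase, measured 51.8, 46.4, 35.8 and 53.4 CPM in cKO and 32.2, 38.8, 34.1 and 45.1 CPM in control libraries. Of the cKO libraries 3 lay above all controls and cKO replicate 3 lay among them. On the log2 scale the difference was 0.32 (standard error 0.12, edgeR adjusted p = 0.234), 0.26 without cKO replicate 4 and 0.43 without cKO replicate 3, where the adjusted p was 0.0268. Pdk1, which holds pyruvate back from the mitochondria, had a log2 fold change of 0.17 (standard error 0.11, edgeR adjusted p = 0.59), and 0.020 without cKO replicate 4.

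The genes of the 2 HIF alpha subunits had mean differences of opposite sign, and neither passed the test. Hif1a, the subunit tied to glycolytic targets, measured 254, 258, 271 and 242 CPM in cKO and 262, 278, 330.0 and 282 CPM in control libraries. Of the cKO libraries 3 lay below all controls, and cKO replicate 3 lay above control replicate 1. This came to a log2 fold change of −0.17 (standard error 0.069, edgeR adjusted p = 0.309). Hif1a was the one gene of the 36 for which cKO replicate 4 held the lowest value of all libraries. Epas1, which encodes HIF-2 alpha and is known to be strong in endothelium, measured 63.6, 52.6, 53.5 and 69.6 CPM in cKO and 53.4, 53.4, 50.1 and 48.7 CPM in control libraries. cKO replicates 1, 3 and 4 lay above all controls, although cKO replicate 3 did so by a small margin. edgeR gave a log2 fold change of 0.22 (standard error 0.081, edgeR adjusted p = 0.248), and 0.15 without cKO replicate 4. Arnt, the shared partner, averaged 72.7 ± 2.83 CPM in cKO and 76.4 ± 2.29 CPM in control libraries (SD, n = 4 each), for a log2 fold change of −0.070 (standard error 0.054, edgeR adjusted p = 0.667).

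Of the prolyl hydroxylases, Egln3 (PHD3, ENSMUSG00000035105, chr12:54178981-54203860 of GRCm38), itself a sensitive HIF target, had the larger difference. It measured 17.2, 13.9, 11.7 and 30.01 CPM in cKO and 8.33, 11.6, 10.9 and 12.8 CPM in control libraries. cKO replicates 1, 2 and 4 lay above all controls, cKO replicate 4 far above, and cKO replicate 3 lay among them. On the log2 scale the difference was 0.74 (standard error 0.22, edgeR adjusted p = 0.13), a 1.67-fold difference, and it was 0.40 without cKO replicate 4. It was 0.91 without cKO replicate 3 (edgeR adjusted p = 0.0288). With the replicate block it was 0.66 (edgeR adjusted p = 0.0365), although same-numbered libraries were not pairs. Egln1 (PHD2), the main oxygen sensor, had a log2 fold change of 0.11 (standard error 0.12, edgeR adjusted p = 0.782). Its sign turned without cKO replicate 4 (−0.056), and only that library lay above the controls, at 187 CPM against 144 CPM in the highest control.

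The 8 hypoxia targets were higher on average in cKO in 7 cases, and 3 of them, Car9, P4ha1 and Bnip3, had an unadjusted p under 0.05. Over all genes tested 3436 of 26820 had such a p. Car9, which encodes a carbonic anhydrase at the cell surface (ENSMUSG00000028463, chr4:43506966-43513729 of GRCm38), measured 6.09, 5.07, 4.77 and 7.41 CPM in cKO and 4.42, 3.73, 4.15 and 4.33 CPM in control libraries. All 4 cKO values exceeded all 4 control values, although the gene is weakly expressed, at 2066 counts over the 8 libraries. This came to a log2 fold change of 0.49 (standard error 0.15, edgeR adjusted p = 0.144) with an approximate 95% interval of 0.20 to 0.78. It was 0.36 without cKO replicate 4, and between 0.36 and 0.58 over all single libraries left out. DESeq2, which passed more genes in all than edgeR, called it at an adjusted p of 0.0312.

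Bnip3, which encodes a mitochondrial protein of mitophagy, measured 97.9, 95.6, 77.7 and 152 CPM in cKO and 69.2, 85.04, 76.4 and 102 CPM in control libraries. Only cKO replicate 4 lay above all controls. edgeR gave a log2 fold change of 0.35 (standard error 0.16, edgeR adjusted p = 0.368), and 0.13 without that library. P4ha1, a collagen prolyl hydroxylase subunit, behaved alike, with 102, 99.1, 87.4 and 136 CPM in cKO and 83.7, 87.1, 81.3 and 105 CPM in control libraries. Its log2 fold change was 0.25 (standard error 0.11, edgeR adjusted p = 0.358), and 0.11 without cKO replicate 4.

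Ndrg1, a stress-responsive gene, measured 3.21, 1.87, 2.18 and 6.02 CPM in cKO and 2.03, 2.28, 2.37 and 2.10 CPM in control libraries. cKO replicates 1 and 4 lay above the controls and cKO replicate 2 below them. Its log2 fold change of 0.60 (standard error 0.28, edgeR adjusted p = 0.393) became 0.15 without cKO replicate 4. Ankrd37 had a log2 fold change of 0.36 (standard error 0.18, edgeR adjusted p = 0.436), and 0.38 without that library. Ddit4, an inhibitor of mTORC1, had 0.14 (standard error 0.077, edgeR adjusted p = 0.5), and Higd1a, a mitochondrial protein gene, 0.11 (standard error 0.086, edgeR adjusted p = 0.672). Without cKO replicate 4 these were 0.085 for Ddit4 and 0.021 for Higd1a. Adm, the gene of the vasoactive peptide adrenomedullin, was the one target lower on average, with −0.17 (standard error 0.19, edgeR adjusted p = 0.794), and −0.28 without cKO replicate 4. Adm, Ankrd37, Car9 and Ndrg1 stood between 2.35 and 7.41 TPM on average, so that their differences rest on low levels.

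The spread within the cKO group was itself uneven. The SD of log2 CPM was larger in cKO than in control libraries for 33 of the 36 genes. Over all genes tested it was larger for 59.1%, with a small constant added to CPM. Without cKO replicate 4 it was larger for 16 of the 36, and the share over all genes was not computed for that case. The median coefficient of variation was 16.1% in cKO and 8.64% in control libraries. cKO replicate 4 was the highest of all 8 libraries for 11 of the 17 enzymes, for 6 of the 8 hypoxia targets and for 7 of the other 11 genes, and over all genes tested it was the highest for 16.8%. Within the groups, cKO replicate 4 was the highest cKO library for 30 of the 36 genes and cKO replicate 3 the lowest for 25, while control replicate 4 was the highest control for 26 and control replicate 1 the lowest for 19. Over all genes tested the shares were 27.4% and 24.8% for those 2 cKO libraries and 26.8% and 28.7% for those 2 control libraries. The cKO 4 library had 56197203 counts, the most of its group. Control replicate 3 had 56660938, the most of all libraries, and was the highest of all libraries for 3 of the 36 genes. The part of depth in these counts of genes was not tested.

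**Figure D4:**
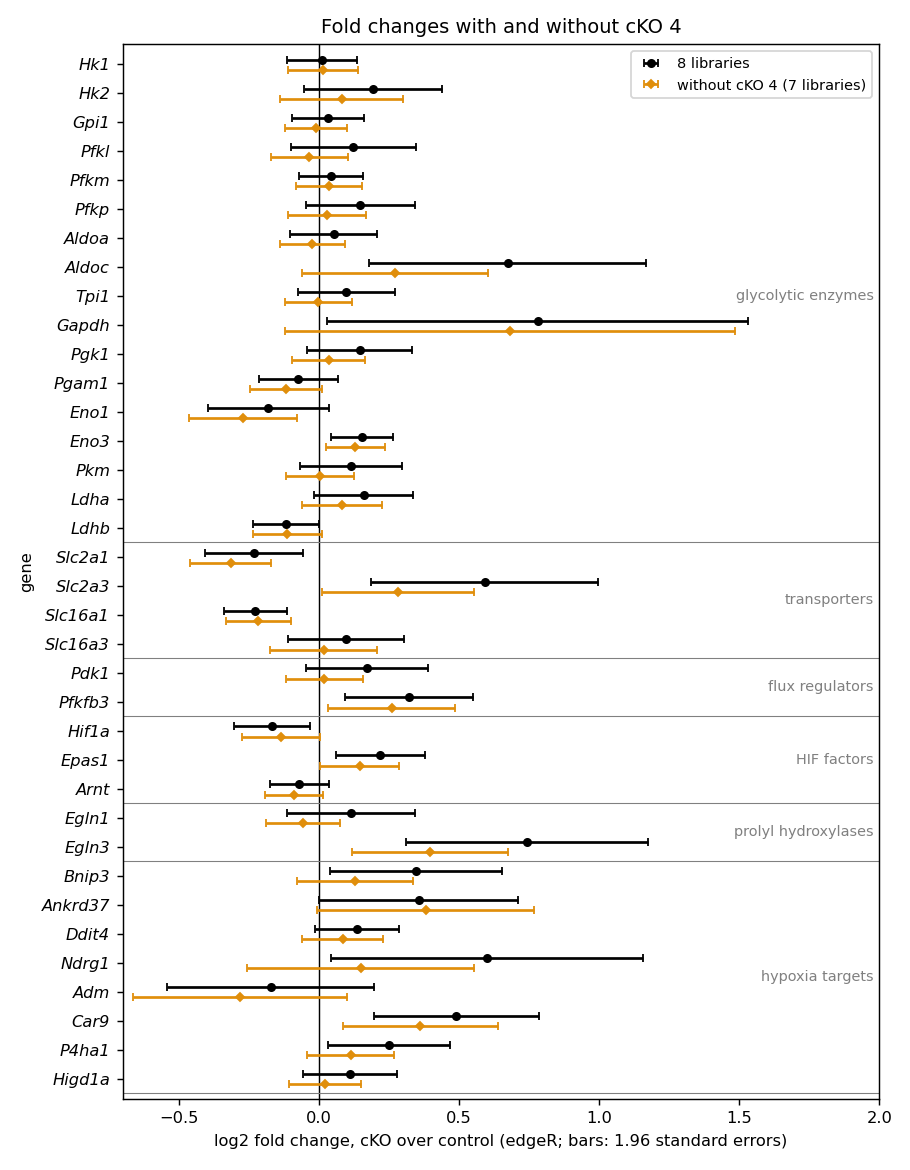
Log2 fold change, cKO over control, of each of the 36 genes with all 8 libraries (black circles) and without cKO 4 (orange diamonds). Bars are approximate 95% intervals, narrower than the F test allows. Most enzymes and targets move toward 0 without cKO 4, Bnip3 from 0.35 to 0.13, while Slc16a1, Eno3 and Ankrd37 stay near their place.

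The mean of each list by library, taken as log2 CPM relative to the control mean, set the libraries side by side. For the enzymes it was 0.14, 0.032, −0.004 and 0.41 in cKO replicates 1 to 4 and ran from −0.15 to 0.13 in the controls. For the hypoxia targets it was 0.18, 0.14, −0.0078 and 0.61 in cKO and ran from −0.092 to 0.075 in the controls. Both lists thus stood apart in cKO replicate 4 and lay at the control mean in cKO replicate 3. In cKO replicate 4 a list of 16 stress response genes was also high, at 0.72 against −0.057 to 0.051 in the other cKO libraries. That mean weights all 16 alike and includes weakly expressed genes. Trib3 was at 11.6 CPM there against 1.52 to 2.62 CPM in the other cKO libraries, and Chac1 at 2.66 against 0.394 to 1.09 CPM. The more abundant Psat1 was lowest there among the cKO libraries, at 84.0 against 88.4 to 93.3 CPM. None of the 16 genes passed the test. The nearest were Asns, Phgdh and Ddit3, with log2 differences of 0.33, −0.18 and 0.36 and edgeR adjusted p-values of 0.167 to 0.178.

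**Figure D5:**
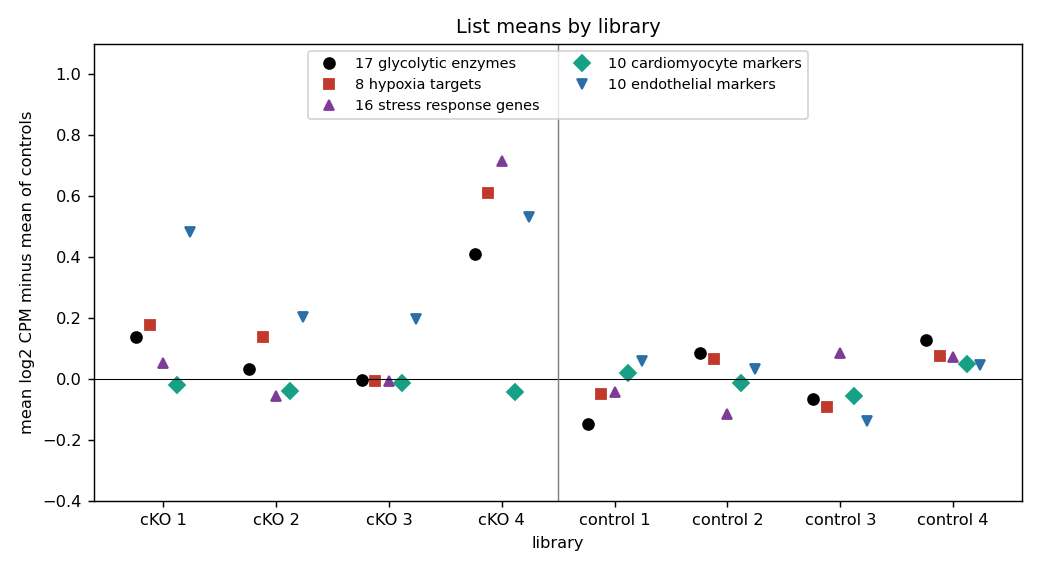
Mean log2 CPM of 5 gene lists in each library, relative to the control mean (vertical axis). In cKO 4 the enzymes (0.41), the hypoxia targets (0.61) and the stress response genes (0.72) stand above all other libraries, the endothelial markers are high in all 4 cKO libraries, and the cardiomyocyte markers stay near 0.

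Markers of other cell types differed between the groups, and their part in the differences above was not tested. The endothelial and endocardial markers were higher in cKO for 10 of 10 genes, summing to 1636 to 2013 CPM in cKO and 1283 to 1513 CPM in control libraries, and Emcn, Nfatc1, Cdh5, Pecam1 and Tie1 rose, by 0.36 to 0.72 on the log2 scale (edgeR adjusted p of 0.0177 to 0.0477). These 5 calls were lost when cKO replicate 1 or any 1 control was left out, and those of Cdh5, Pecam1 and Tie1 also without cKO replicate 4 (adjusted p of 0.0557, 0.0649 and 0.0832), while the differences stayed between 0.31 and 0.83. The macrophage markers were higher for 10 of 10, at 9.56 to 38.9 against 4.51 to 11.1 CPM, where C1qc (2.54) and C1qb (2.30) rose and Mrc1 (1.16) had an adjusted p of 0.0813. The call of C1qc held in 5 of 8 fits that left out 1 library, being lost without cKO replicate 1, control replicate 3 or control replicate 4 (edgeR adjusted p up to 0.0683), and that of C1qb in 3 of 8, being lost also without cKO replicate 4 (0.0548) or control replicate 1. The platelet markers summed to 33.7 to 109.8 against 20.5 to 51.5 CPM and the red cell markers to 1381 to 4868 against 1520.2 to 4709 CPM, both highest in cKO replicate 4, with none past the test. The nearest in p were Itga2b (1.07), Pf4 (1.14) and Gp9 (1.03), and for red cells Hbb-bh1 (0.34), Alas2 (0.37) and Hba-a1 (0.35). No measured gene of these 4 lists was at 0 in all libraries.

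The lists of heart muscle and other tissue differed less or in the other direction. Of the cardiomyocyte markers 4 of 10 were higher and none passed, the nearest being Nkx2-5 (−0.32), Tnni1 (−0.15) and Nppa (0.20). Among the 5 ventricular markers Hey2, the compact wall transcription factor, fell by 0.46 on the log2 scale (edgeR adjusted p = 0.00171), and Irx4 (−0.25) and Mpped2 (0.13) did not pass. The epicardial markers were lower for 5 of 6, with Aldh1a2 (−0.59), Tbx18 (−0.30) and Wt1 (−0.16) nearest and none past the test. Cushion mesenchyme markers showed 0.16 for Pdgfra, 0.15 for Postn and 0.18 for Col1a1, also not past it. Hepatic and yolk sac genes summed to 13.1 to 19.4 against 14.3 to 43.2 CPM, with Ttr (−1.71), Apob (−1.74) and Afp (−3.65) lower on average but not past the test. Control replicate 1 held the highest values of these 3 genes, with Afp at 15.9, 0.249, 2.24 and 0.501 CPM in control replicates 1 to 4, and without it the log2 differences were −1.05 for Ttr, −1.31 for Apob and −1.42 for Afp. Of the genes of handling and early response, Egr1 rose by 0.58 (edgeR adjusted p = 0.0249), and Fos (0.34) and Ier2 (0.16) did not pass. The Egr1 call was lost without cKO replicate 1 or any 1 control (edgeR adjusted p up to 0.107).

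Other genes of glycolysis and pyruvate handling, from a list of 38 of which 36 could be tested, were higher in 20 cases and lower in 16, and 2 passed the test. Pfkfb2, the heart form of the enzyme that sets the activator of phosphofructokinase, measured 21.6, 17.8, 16.8 and 16.9 CPM in cKO and 11.5, 13.3, 12.4 and 11.98 CPM in control libraries. Eno2, the neuronal enolase, measured 12.9, 10.7, 10.7 and 14.9 CPM in cKO and 8.52, 8.48, 7.68 and 8.05 CPM in control libraries. In both genes all 4 cKO values exceeded all 4 control values. cKO replicate 4 lay within the range of the other cKO libraries for Pfkfb2 and was the highest of all libraries for Eno2. Pfkfb2 rose by 0.58 (standard error 0.094, edgeR adjusted p = 0.00877) and Eno2 by 0.58 (standard error 0.11, edgeR adjusted p = 0.0242) on the log2 scale. Without cKO replicate 4 the differences were 0.62 for Pfkfb2 and 0.49 for Eno2. The Pfkfb2 call was lost only without control replicate 1 (edgeR adjusted p = 0.053), among single libraries left out, and the Eno2 call without cKO replicate 1 or any 1 control (edgeR adjusted p up to 0.098). Myc, which drives glycolytic genes, was next in p, at 0.81 (standard error 0.22, edgeR adjusted p = 0.104), with its highest values in cKO replicates 1 and 4. The median of the list was 0.043.

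Of 39 further hypoxia-responsive and oxygen-sensing genes, 26 were higher and 13 lower in cKO, with a median of 0.087, and none passed the edgeR test. At an unadjusted p under 0.05 there were 9, all of them higher, against 3436 of 26820 genes tested. Hmox1, the heme oxygenase, had 0.36 (standard error 0.10, edgeR adjusted p = 0.0946). Vegfa, the angiogenic ligand and a textbook HIF target, measured 198, 173, 164 and 269 CPM in cKO and 145, 161, 148 and 156 CPM in control libraries. The log2 fold change of Vegfa was 0.40 (standard error 0.11, edgeR adjusted p = 0.119), and 0.23 without cKO replicate 4. Groups did not overlap for 5 of the 39 genes, against 6.91% of all genes tested. All 4 cKO libraries lay above all controls for Vegfa, Hmox1 and Wsb1 (0.11 on the log2 scale, edgeR adjusted p = 0.453). They lay below all controls for the prolyl hydroxylase gene Egln2 (−0.11, edgeR adjusted p = 0.45) and for Arnt2 (−0.16, edgeR adjusted p = 0.509).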

How the data were processed

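Poly(A) RNA of E10.5 ventricles was sequenced in 8 libraries (4 cKO, 4 control), grouped by their labels, and no column was left out. Raw counts for each gene symbol were deposited by the authors, with a separate table of TPM computed by the authors, without pooling of replicates. The submitters' processing notes name Trim Galore 0.6.7, HISAT2 2.2.1, StringTie 2.2.1, featureCounts and DESeq2, and the strand setting is not given in the sources used here. The methods name GRCm39, but positions in the TPM table are those of GRCm38 and are given as such. The symbol Aldoa had a second TPM row, and its higher row was used.

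From the counts, edgeR 4.0.16 (R 4.3.3) tested 26820 genes whose counts summed to 8 or more by the quasi-likelihood F test (TMM, design with condition alone, Benjamini-Hochberg adjustment, threshold 0.05, with a fold threshold of 1.5 given apart), which was tested on simulated data. Intervals (95%) were taken from the standard errors by a normal approximation, so they are narrower than the F test allows. That of Gapdh, 0.030 to 1.53, leaves out 0 at an unadjusted edgeR p of 0.0585. List means use a prior count of 2. Exact permutation tests were two-sided over 70 groupings. Alternatives were DESeq2 1.42.0, limma-voom (limma 3.58.1), other size factors and filters, the replicate block, Xist as a covariate, limma on log2 TPM (pseudocounts 1 and 0.1, also with a mean TPM of at least 1), pseudogene counts added, shares of CPM and each library left out. Leaving out both libraries numbered 4, leaving Gapdh out of the median and adding Eno1b to Eno1 were chosen after seeing the data. Libraries held 47559845 to 56660938 counts. No libraries of a group were copies: the chi-square per degree of freedom of the 12 pairs was 14.6 to 50.2, where counting error gives about 1. The series text calls the libraries biological replicates, and the methods take a single animal or embryo as the unit unless they state otherwise, which they do not for these libraries.

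The genes and lists were chosen with earlier results of these data known. Named were all 36 genes and Pkn2, and of the other lists those past the threshold or, where fewer than 3 passed, those of lowest p until 3 were named. Wsb1, Egln2, Arnt2, Eno1b, Trib3, Chac1 and Psat1 were named after their values were seen. The result of 1 further gene under this rule is not reported here.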

Additional observations from a re-analysis of the deposited data

Results flagged for a closer look

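In 3 of 74 groups of 4 libraries examined (36 genes and Pkn2, in cKO and in control), a single library stood far from the others by Dixon's criterion at the 95% level, and chance alone flags about 1 group in 20. All 3 were cKO replicate 4. Tpi1 was at 1765 CPM there, against 1317 to 1384 CPM in the other cKO libraries. Pgk1 was at 1895 CPM, against 1366 to 1450 CPM. Higd1a was at 123 CPM, against 94.2 to 97.5 CPM. These genes share a library, so the flags are not independent of each other.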

How the results depend on the processing

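The direction of each of the 36 genes held under all alternatives other than leaving out libraries. Without both libraries numbered 4, Egln1 turned to −0.0013. Over single libraries left out, signs turned for Hk1 (−0.015 to 0.052), Gpi1 (−0.010 to 0.079), Pfkl (−0.034 to 0.21), Aldoa (−0.024 to 0.11), Tpi1 (−0.0018 to 0.15) and Egln1 (−0.056 to 0.20). The replicate numbers were not pairs (correlations of same-numbered libraries −0.19, −0.030, 0.0056 and −0.14 over 14302 genes, and no cKO library correlated best with its own number). With the replicate block, 380 genes passed, 168 of them with the fold threshold, and 2 of the 36 genes passed (Slc2a3 and Egln3), 1 with the fold threshold.

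Of the 36 genes, 2 passed with DESeq2 and 5 with no filter (Aldoc, Slc2a3, Slc16a1, Pfkfb3 and Egln3), 3 of these with the fold threshold. Leaving out single libraries gave 0 to 3 passing genes, and 0 to 2 with the fold threshold: Slc16a1 without cKO 2, Slc2a3, Pfkfb3 and Egln3 without cKO 3, and Gapdh without control 2. Over all genes, 867 passed with DESeq2 (230 with the fold threshold), 878 with no filter (366), 2 with limma on log2(TPM + 1) (1), 5 with a pseudocount of 0.1 (4), 22 at a mean TPM of at least 1 (10) and 96 without both libraries numbered 4 (44). With limma-voom 62 passed both thresholds, against 98 in the main fit. By adjusted p alone, single libraries left out gave 67 (without control 1) to 744 (without cKO 3) passing genes. With the fold threshold they gave 31 to 296. The median of the hypoxia targets was 0.12 to 0.40 over single libraries left out and 0.16 without both libraries numbered 4, and that of the enzymes was 0.013 (without cKO 4) to 0.17. The cause of these shifts was not tested. The lowest counts of the 36 genes in a library were 90 (Ndrg1), 109 (Adm), 110 (Ankrd37) and 180 (Car9), and counting error was not separated from other spread.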

Other observations

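Among the other genes of pyruvate handling, those that carry pyruvate into the mitochondria and oxidise it had lower means in cKO. These genes were picked out after their values were seen, and none passed the edgeR test. Pdha1, the catalytic subunit of pyruvate dehydrogenase, was at 248, 236, 251 and 229.9 CPM in cKO and 256, 260.2, 287 and 278 CPM in control libraries, so that every cKO library lay below every control library. Its log2 fold change was −0.16 (standard error 0.057, edgeR adjusted p = 0.21). Its partner Pdhb had −0.14 (standard error 0.063, edgeR adjusted p = 0.364), the mitochondrial pyruvate carrier subunit Mpc2 −0.25 (standard error 0.10, edgeR adjusted p = 0.331) and, in glycolysis itself, the muscle phosphoglycerate mutase Pgam2 −0.16 (standard error 0.057, edgeR adjusted p = 0.208). Pdk4, a kinase that inhibits pyruvate dehydrogenase, was also lower on average, with −0.20 (standard error 0.083, edgeR adjusted p = 0.317). Of the 36 genes of this list that were tested, 9 had an unadjusted p under 0.05, 4 higher and 5 lower, and these 5 are the lower ones. Over all genes tested 3436 of 26820 had such a p.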
